A study of Mus musculus with 12 samples.

Results

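Oxidative phosphorylation was followed through 40 subunit genes, of which 13 lie on the mitochondrial genome and 27 in the nucleus. The members were listed by symbol, as all protein genes of the mitochondrial genome and a list of nuclear subunit genes of complexes I to IV. Each of the 40 symbols was matched to 1 Ensembl gene identifier among the 37991 in the count tables. A count of 0 in every library kept mt-Nd4l out of the tests, and the other 39 members were tested.

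The counts come from 12 RNA-seq libraries of mouse embryonic fibroblasts (MEFs), primary cultures of embryonic connective tissue, with 3 libraries for each of 4 genotypes. The groups are wild type (WT), Ing1-/- (Ing1 KO), Gadd45a-/-, and Gadd45a-/-;Ing1-/- double mutants (DKO). All cells are C57BL/6N per the labels, from male embryos at E15.5, and were harvested at passage 4 and 80% confluency, so age, sex and culture stage are shared by all 4 groups. The labels do not say which part of either gene is deleted, nor whether the 3 libraries of a group are separate embryos, so p-values measure the spread between libraries, which may be technical. In bulk RNA such as this, fewer cells of a type and less RNA per cell cannot be told apart.

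Oxidative phosphorylation is the process by which mitochondria use electrons from nutrients to pump protons across their inner membrane and let the protons drive ATP synthesis. Complexes I (NADH dehydrogenase), III (cytochrome bc1) and IV (cytochrome c oxidase) and the ATP synthase (complex V) are built from subunits of both genomes, while complex II (succinate dehydrogenase) is wholly nuclear. The mitochondrial genes are transcribed inside the organelle as long joint precursors that are cut into single RNAs, so their levels are not independent of each other, whereas each nuclear gene has a promoter of its own.

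The sequence of mt-Nd4l, a complex I subunit, is shown because this gene had no counts at all. It has 297 bases in the GENCODE M21 transcripts. Every 51-base read, the read length of these libraries, was compared with all other genes of that annotation: 244 of 247 windows of mt-Nd4l occur letter for letter in Gm10222, a gene that the count tables also list and that had 0 counts in all 12 libraries. Capitals mark the 3 bases that lie outside every window shared with Gm10222.
mt-Nd4l: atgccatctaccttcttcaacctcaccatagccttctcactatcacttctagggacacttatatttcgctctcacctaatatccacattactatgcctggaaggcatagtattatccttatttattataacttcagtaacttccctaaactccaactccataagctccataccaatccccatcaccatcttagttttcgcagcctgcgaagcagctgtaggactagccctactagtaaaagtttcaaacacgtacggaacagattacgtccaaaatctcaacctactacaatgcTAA

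Windows of this kind were also common in other mitochondrial members. All 634 windows of mt-Co2 occurred in another annotated gene, as did 733 of 734 in mt-Co3, 628 of 631 in mt-Atp6, 292 of 298 in mt-Nd3, 826 of 1328 in mt-Nd4 and 757 of 1495 in mt-Co1. Shares were lower in mt-Nd2, with 79 of 988, and mt-Nd5, with 128 of 1774, while mt-Nd1, mt-Nd6, mt-Cytb and mt-Atp8 had none. The main matching genes of these members other than mt-Nd2 are not listed in the count tables. Reads that map to several places are counted to no gene, so the counts of members with shared windows are uncertain. In Ing1 KO against the WT and in the libraries labelled DKO against each single knockout, mt-Nd1 and mt-Atp8, without shared windows, were called together with mt-Co1 and mt-Co2, which have them. Windows were compared with annotated transcripts only, so copies elsewhere in the genome would not be seen. Members without shared windows may therefore also lose reads to multiple mapping, and this was not tested.

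Promoter sequences are shown for Uqcrc1, called higher in both groups that lack Ing1, for Sdhd, called higher in the libraries labelled DKO against each of the other groups, and for Ndufs8, which had the lowest adjusted p of the nuclear members in Ing1 KO. They are RefSeq promoters on GRCm38.p6 from 250 bases before to 50 bases after the annotated gene start, read 5′ to 3′ along the gene's strand, at chr9:108936398-108936697 (plus strand) for Uqcrc1, chr9:50603800-50604099 (minus strand) for Sdhd and chr19:3912725-3913024 (minus strand) for Ndufs8. The counts were made on another build, mm9. Capitals mark matches to the NRF1 motif in Uqcrc1 and to the ETS motif, here on the opposite strand, in Sdhd and Ndufs8. NRF1 and the ETS family factor GABP are known regulators of nuclear respiratory genes.
Uqcrc1: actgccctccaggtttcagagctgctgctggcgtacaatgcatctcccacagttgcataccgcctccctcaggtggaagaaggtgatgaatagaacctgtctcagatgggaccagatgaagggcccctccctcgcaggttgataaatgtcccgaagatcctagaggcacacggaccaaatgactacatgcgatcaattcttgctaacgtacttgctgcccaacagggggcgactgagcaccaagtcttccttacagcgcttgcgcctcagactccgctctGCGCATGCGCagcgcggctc
Sdhd: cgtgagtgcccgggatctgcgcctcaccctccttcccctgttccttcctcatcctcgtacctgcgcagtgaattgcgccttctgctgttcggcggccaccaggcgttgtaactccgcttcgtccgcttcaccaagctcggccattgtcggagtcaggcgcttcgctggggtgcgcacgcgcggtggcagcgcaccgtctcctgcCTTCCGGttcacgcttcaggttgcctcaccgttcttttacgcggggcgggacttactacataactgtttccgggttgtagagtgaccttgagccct
Ndufs8: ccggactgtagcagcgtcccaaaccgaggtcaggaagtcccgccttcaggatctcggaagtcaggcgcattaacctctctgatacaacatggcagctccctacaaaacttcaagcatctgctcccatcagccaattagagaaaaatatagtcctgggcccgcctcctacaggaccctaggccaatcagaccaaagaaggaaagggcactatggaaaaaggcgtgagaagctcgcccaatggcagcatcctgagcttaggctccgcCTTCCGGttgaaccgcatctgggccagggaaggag

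Of the 27 nuclear members, 19 had a promoter in the RefSeq table. On either strand, the NRF1 motif (GCGCATGCG) occurred in 1 of these 19 (5.3%) and in 1.75% of 32851 promoters of the same length. The ETS motif (CCGGAAG) occurred in 4 of 19 (21.1%), which are those of Sdhd, Ndufs8, Sdhb and Ndufs3, against 8.86% of all. The YY1 motif (AAGATGGCG) occurred in 2 of 19 (10.5%), Ndufa9 and Ndufs7, against 1.4%, and the GC box (GGGGCGGGG) in 2 of 19 (10.5%) against 11.45%. In the Uqcrc1 promoter the capitals hold the NRF1 motif on both strands, overlapping. None of the 3 printed promoters holds another match to any of the 4 motifs. A match describes letters and not a bound site. The median GC content was 59.0% in the member promoters and 52.7% in all promoters.

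The libraries held 31493168 to 42852059 gene counts each. Levels are CPM, counts relative to the library size after TMM scaling, and are given for replicates 1, 2 and 3 in that order. Ing1 fell from 52.3 ± 2.02 CPM in the WT to 1.22 ± 0.204 CPM in Ing1 KO and 1.12 ± 0.19 CPM in the libraries labelled DKO (SD, n = 3 each). Gadd45a goes against its labels: it stood at 21.1 ± 0.197 CPM in WT and 18.4 ± 1.91 CPM in Ing1 KO libraries, but at 100 ± 21.8 CPM under the Gadd45a knockout label and 126 ± 6.29 CPM under the DKO label, so every direction drawn from the Gadd45a label below is that of libraries so labelled. Fibroblast markers were high throughout, with a sum of 58700 to 71600 CPM over 8 genes. The summed level of 16 macrophage markers was 264 to 455 CPM in WT libraries, 358 to 627 CPM in Ing1 KO libraries, 141 to 553 CPM under the Gadd45a knockout label and 2250 to 2800 CPM under the DKO label, with no marker at 0 in any library. In the libraries labelled DKO, 2348 genes were higher and 1561 lower than in the WT, but 1872 were higher and 2179 lower with upper-quartile scaling. Against the libraries labelled Gadd45a knockout, 2387 were higher and 1601 lower, or 1887 and 2234 with that scaling.

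Per kilobase of transcript, the level of the 12 counted mitochondrial members in the WT had a median of 788 CPM per kb, from 306 for mt-Atp6, a proton channel subunit of the ATP synthase, to 2860 for mt-Co3, a core subunit of complex IV. The 27 nuclear members had a median of 41.7 CPM per kb in the WT, from 22.5 for Ndufs7, an iron-sulfur subunit of complex I, to 248 for Cox4i1, the common isoform of a complex IV subunit. Order among the mitochondrial members is uncertain where they share windows with other genes.

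In the balance of the 2 genomes the WT libraries stood apart from those of all 3 other groups. The mitochondrial members took 1.222% to 1.304% of the gene counts in the WT, 1.059% to 1.151% in Ing1 KO, 1.045% to 1.118% in the libraries labelled Gadd45a knockout and 1.133% to 1.175% in those labelled DKO. The nuclear members took 0.18% to 0.185% in the WT, 0.185% to 0.196% in Ing1 KO, 0.18% to 0.186% in the libraries labelled Gadd45a knockout and 0.188% to 0.195% in those labelled DKO. Per nuclear-member read there were 6.88 ± 0.328 mitochondrial reads in the WT, 5.80 ± 0.343 in Ing1 KO, 5.86 ± 0.178 in the libraries labelled Gadd45a knockout and 6.02 ± 0.0417 in those labelled DKO (SD, n = 3 each). This ratio needs no scaling of the libraries. The 3 WT libraries, at 6.658 to 7.252, lay above the other 9, at 5.411 to 6.063, and the other groups overlapped each other. No test was run on these sums. An exact two-sided permutation test of 3 libraries against 3 cannot go below p = 0.1.

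**Figure D1:**
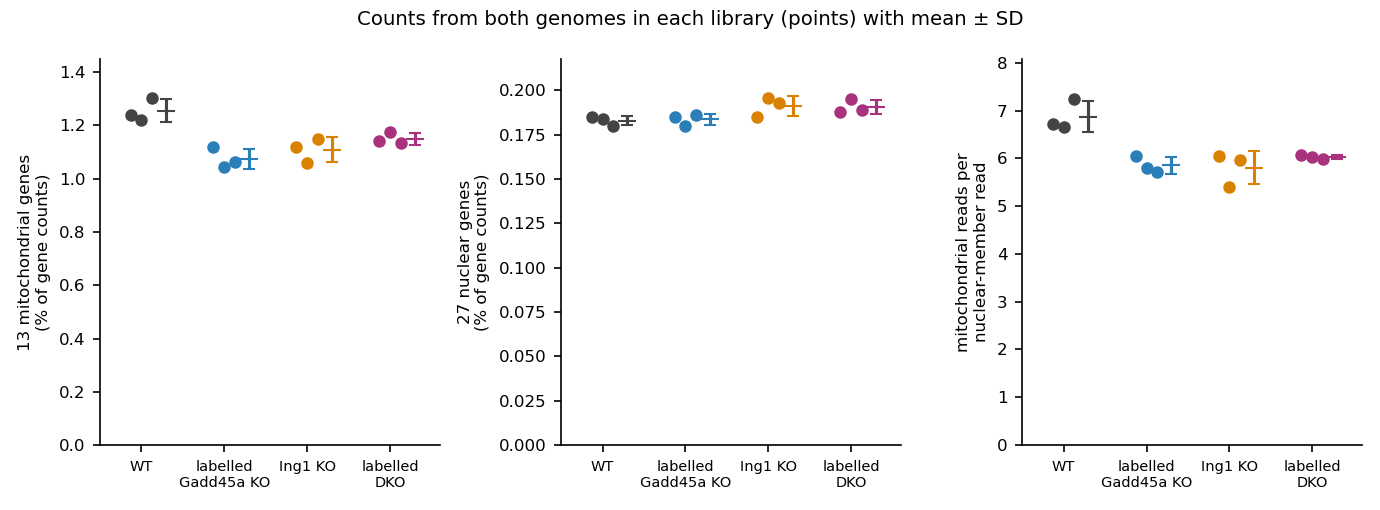
Share of gene counts taken by the 13 mitochondrial members (left) and by the 27 nuclear members (middle), in percent, and mitochondrial reads per nuclear-member read (right). Points are libraries, and bars beside them are the mean and SD of the 3 libraries of a group. In the right panel the WT libraries (6.658 to 7.252) lie above all 9 others (5.411 to 6.063).

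Loss of Ing1 alone was examined by comparing Ing1 KO with the WT. The mitochondrial members stood lower and several nuclear members stood higher, all by small amounts. Of 12 tested mitochondrial members, 4 fell and none rose at an edgeR adjusted p under 0.05, where 11.4% of the 15098 tested genes fell. All 12 had a log2 fold change below 0, from -0.36 to -0.04, with a median of -0.18 beside 0.00 over all tested genes, of which 50.5% were below 0. In 9 of the 12 the Ing1 KO libraries lay wholly below the WT libraries, against 18.8% of all tested genes.

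Among these, mt-Co2 (ENSMUSG00000064354), a catalytic core subunit of complex IV that takes electrons from cytochrome c, stood at 1020, 1010 and 1050 CPM in WT libraries, 894, 799 and 891 CPM in Ing1 KO libraries, 904, 885 and 839 CPM with the Gadd45a knockout label and 977, 994 and 990 CPM with the DKO label. The Ing1 KO libraries lay below the WT libraries without overlap, and the fold change was -0.25 ± 0.05 on the log2 scale (± SE, edgeR adjusted p = 0.00322). The level of mt-Co1 (ENSMUSG00000064351), the subunit of complex IV in which oxygen is reduced, was 2980, 3040 and 3140 CPM in WT libraries, 2670, 2460 and 2810 CPM in Ing1 KO libraries, 2760, 2590 and 2560 CPM with the Gadd45a knockout label and 3040, 2960 and 3140 CPM with the DKO label. Its Ing1 KO libraries were all below the WT, by -0.21 ± 0.05 (log2, edgeR adjusted p = 0.0145). That call ended without WT replicate 3 (adjusted p = 0.0514) or without Ing1 KO replicate 2 (adjusted p = 0.0772).

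Of the other called mitochondrial members, mt-Atp8 (ENSMUSG00000064356), a small membrane subunit of the ATP synthase, stood at 87.3, 85.9 and 97.3 CPM in WT libraries, 76.6, 63.3 and 70.6 CPM in Ing1 KO libraries, 67.9, 66.5 and 69.0 CPM with the Gadd45a knockout label and 81.7, 88.7 and 98.1 CPM with the DKO label. It showed the largest change of the 12 in Ing1 KO, -0.36 ± 0.08 (log2, edgeR adjusted p = 0.00523), with no overlap between Ing1 KO and WT. Of its 204 bases, 43 overlap mt-Atp6, so that reads there belong to neither alone. The level of mt-Nd1 (ENSMUSG00000064341), a membrane subunit of complex I, was 960, 917 and 1000 CPM in WT libraries, 855, 799 and 865 CPM in Ing1 KO libraries, 823, 814 and 787 CPM with the Gadd45a knockout label and 968, 1030 and 862 CPM with the DKO label. It fell by 0.19 on the log2 scale in Ing1 KO (SE 0.06, edgeR adjusted p = 0.0346), and this call ended without WT replicate 1 (adjusted p = 0.0685), without WT replicate 3 (adjusted p = 0.118) or without Ing1 KO replicate 2 (adjusted p = 0.147), and with the replicate block (adjusted p = 0.0536). The calls of mt-Co2 and mt-Atp8 held under every alternative tried.

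The other 8 mitochondrial members were not called in Ing1 KO. For the complex I subunits their log2 fold changes were -0.04 for mt-Nd2, -0.28 for mt-Nd3, -0.19 for mt-Nd4, -0.15 for mt-Nd5 and -0.16 for mt-Nd6. They were -0.14 for mt-Cytb, the only mitochondrial subunit of complex III, -0.11 for mt-Co3 and -0.10 for mt-Atp6. Of all 12, 9 were lower at an unadjusted p under 0.05, against 17.9% of all tested genes, and 6 were called lower by DESeq2, which called 1634 of 24670 genes lower. With upper-quartile scaling 8 of the 12 were called lower, and without WT replicate 3 or without Ing1 KO replicate 2 it was 2 each.

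**Figure D2:**
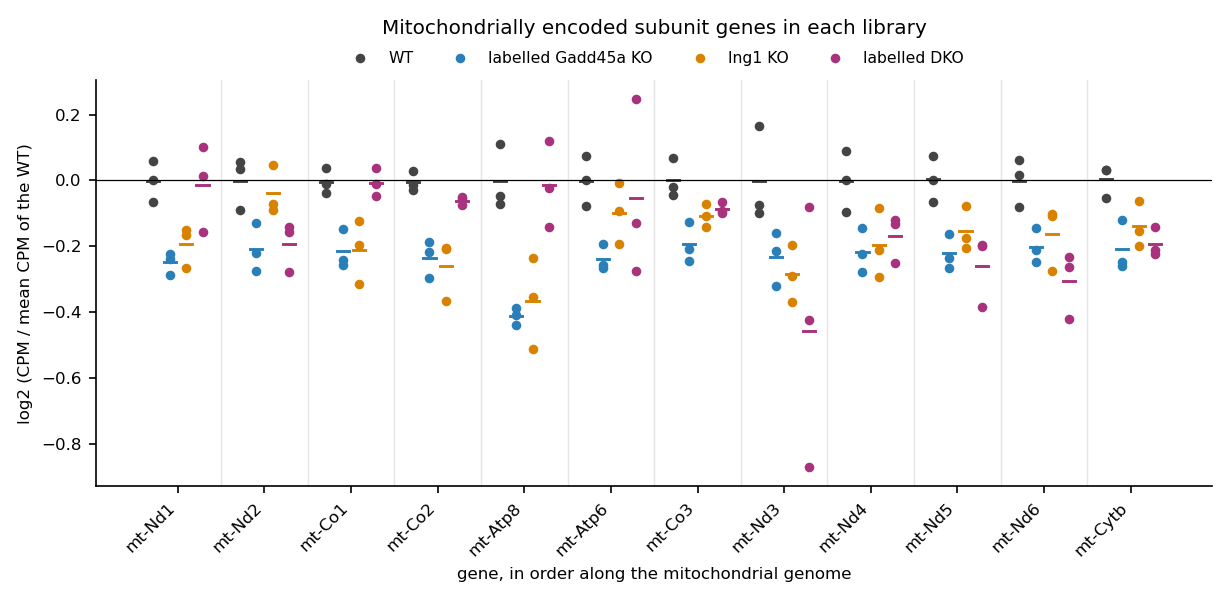
CPM of the 12 counted mitochondrial members in each library relative to the mean of the 3 WT libraries, on a log2 scale, with genes in their order along the mitochondrial genome. Points are libraries and short lines are group means. The libraries labelled Gadd45a knockout lie below the WT in every gene, while those labelled DKO are near the WT in mt-Nd1, mt-Co1 and mt-Atp8 and low in mt-Nd5, mt-Nd6 and mt-Cytb.

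Of the 27 nuclear members, 6 rose in Ing1 KO and none fell, where 12.1% of all tested genes rose. Their median log2 fold change was 0.07, with a range from -0.11 to 0.47, and 22 of the 27 were above 0, beside 49.5% of all tested genes. In 9 the Ing1 KO libraries lay wholly above the WT libraries, against 18.5% of all. The mitochondrial median thus stood 0.24 below the nuclear one. By complex, 2 of 12 members of complex I, 1 of 4 of complex II, 3 of 5 of complex III and 0 of 6 of complex IV were called. The 6 of complex IV had log2 fold changes from -0.03 to 0.09, none with an unadjusted p under 0.05 in edgeR.

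In complex III 3 of 5 nuclear members were called. Uqcrq (ENSMUSG00000044894), a small accessory subunit, stood at 39.9, 32.3 and 34.2 CPM in WT libraries, 43.2, 54.5 and 49.3 CPM in Ing1 KO libraries, 44.4, 44.6 and 41.6 CPM with the Gadd45a knockout label and 40.6, 51.4 and 44.2 CPM with the DKO label. All Ing1 KO libraries were above all WT libraries, by 0.47 ± 0.11 (log2, edgeR adjusted p = 0.0087). Uqcrc1 (ENSMUSG00000025651), a large core subunit, stood at 120, 116 and 109 CPM in WT libraries, 127, 141 and 135 CPM in Ing1 KO libraries, 119, 119 and 122 CPM with the Gadd45a knockout label and 130, 125 and 132 CPM with the DKO label. It was higher in Ing1 KO without overlap, by 0.23 ± 0.05 (log2, edgeR adjusted p = 0.00477).

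The third was Cyc1 (ENSMUSG00000022551), cytochrome c1, the haem subunit that hands electrons to cytochrome c, at 64.6, 62.7 and 62.7 CPM in WT libraries, 69.4, 78.2 and 73.8 CPM in Ing1 KO libraries, 66.1, 69.4 and 68.6 CPM with the Gadd45a knockout label and 68.4, 65.0 and 64.3 CPM with the DKO label. It rose by 0.22 ± 0.05 (log2, edgeR adjusted p = 0.00513), again without overlap. The other nuclear subunits of complex III, Uqcrc2 and the Rieske iron-sulfur protein Uqcrfs1, had log2 fold changes of 0.01 and 0.09 and were not called. Within complex III the called nuclear members rose, and mt-Cytb, the subunit they surround, had a log2 fold change of -0.14 and was not called (edgeR adjusted p = 0.0599).

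In complex I, Ndufs8 (ENSMUSG00000059734), which carries 2 iron-sulfur clusters, stood at 30.3, 30.0 and 26.9 CPM in WT libraries, 33.3, 37.2 and 35.7 CPM in Ing1 KO libraries, 29.6, 31.4 and 30.6 CPM with the Gadd45a knockout label and 33.2, 31.8 and 30.4 CPM with the DKO label. It rose by 0.29 ± 0.06 (log2, edgeR adjusted p = 0.00456), with all Ing1 KO libraries above the WT. Ndufs7, its iron-sulfur neighbour at the quinone site, rose by 0.27 ± 0.09 (edgeR adjusted p = 0.0457). It lies outside the rule for named genes and was chosen after its values were seen. Its groups overlapped, and its call ended without either of WT replicates 2 and 3 or of Ing1 KO replicates 1 and 2 (adjusted p of 0.138, 0.17, 0.0676 and 0.2), with upper-quartile factors (0.0594) and with only these groups in the fit (0.124).

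In complex II, which reduces ubiquinone with electrons from succinate, Sdhb, the iron-sulfur subunit, rose by 0.14 ± 0.04 (log2, edgeR adjusted p = 0.0352), from 70.0 ± 0.58 to 77.2 ± 4.80 CPM (SD, n = 3 each). Its call ended without WT replicates 1, 2 or 3 or without Ing1 KO replicates 2 or 3 (adjusted p of 0.066, 0.0814, 0.0822, 0.166 and 0.0962), with upper-quartile factors (0.059) and with only these groups in the fit (adjusted p = 0.117). The calls of Uqcrq, Uqcrc1, Cyc1 and Ndufs8 held under every alternative tried.

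The libraries labelled Gadd45a knockout were compared with the WT to ask about loss of Gadd45a alone, with Gadd45a itself higher in them. The mitochondrial members stood lower by similar amounts, but none was called, and neither was any nuclear member. In the whole fit 1 gene was called, Gadd45a, which is 0.00662% of the tested genes, and 8.82% had an unadjusted p under 0.05. All 12 mitochondrial members had log2 fold changes below 0, from -0.41 to -0.19, with a median of -0.22 beside 0.00 over all tested genes, of which 48.9% were below 0. In all 12 the libraries lay wholly below the WT, against 6.97% of all tested genes, and 11 of 12 were lower at an unadjusted p under 0.05, against 3.52%.

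The member furthest from the WT was mt-Atp8, at -0.41 ± 0.08 (log2, edgeR adjusted p = 0.313), followed by mt-Nd1 at -0.25, mt-Atp6 at -0.24 and mt-Co2 and mt-Nd3 at -0.23 each. The values of mt-Nd2, mt-Nd4, mt-Nd5, mt-Co1 and mt-Cytb ran from -0.22 to -0.21, with mt-Nd6 at -0.20 and mt-Co3 at -0.19. DESeq2 called 23 genes in all, of which 6 were mitochondrial members, all lower: mt-Atp8, mt-Co2, mt-Co3, mt-Cytb, mt-Co1 and mt-Nd1 (DESeq2 adjusted p of 0.0036, 0.00389, 0.0115, 0.0313, 0.0362 and 0.0377). Replicate numbers were taken to pair the libraries of this comparison, on correlations that partly overlapped those of other-numbered libraries. With the replicate block 0 mitochondrial members were called in the fit of all 12 libraries, and in a fit of these 6 libraries 13 genes were called, among them mt-Atp8 (edgeR adjusted p = 0.00986).

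The nuclear members showed no such shift in 1 direction. Of 27, 0 were called by edgeR and 0 by DESeq2, and 5 had an unadjusted p under 0.05, against 8.82% of all tested genes. Above 0 were 14, beside 51.1% of all tested genes, with a median of 0.01 and a range from -0.11 to 0.29. The nuclear members furthest above the WT were Uqcrq at 0.29 ± 0.11 (edgeR adjusted p = 0.517), Ndufs7 at 0.24 and Ndufb10 at 0.17, and the one furthest below was Cox7b, a small complex IV subunit, at -0.11. The mitochondrial median stood 0.23 below the nuclear one. The comparisons of Ing1 KO, of the labelled Gadd45a knockout and of the labelled DKO with the WT share the same 3 WT libraries, so similar values in them are not independent.

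**Figure D3:**
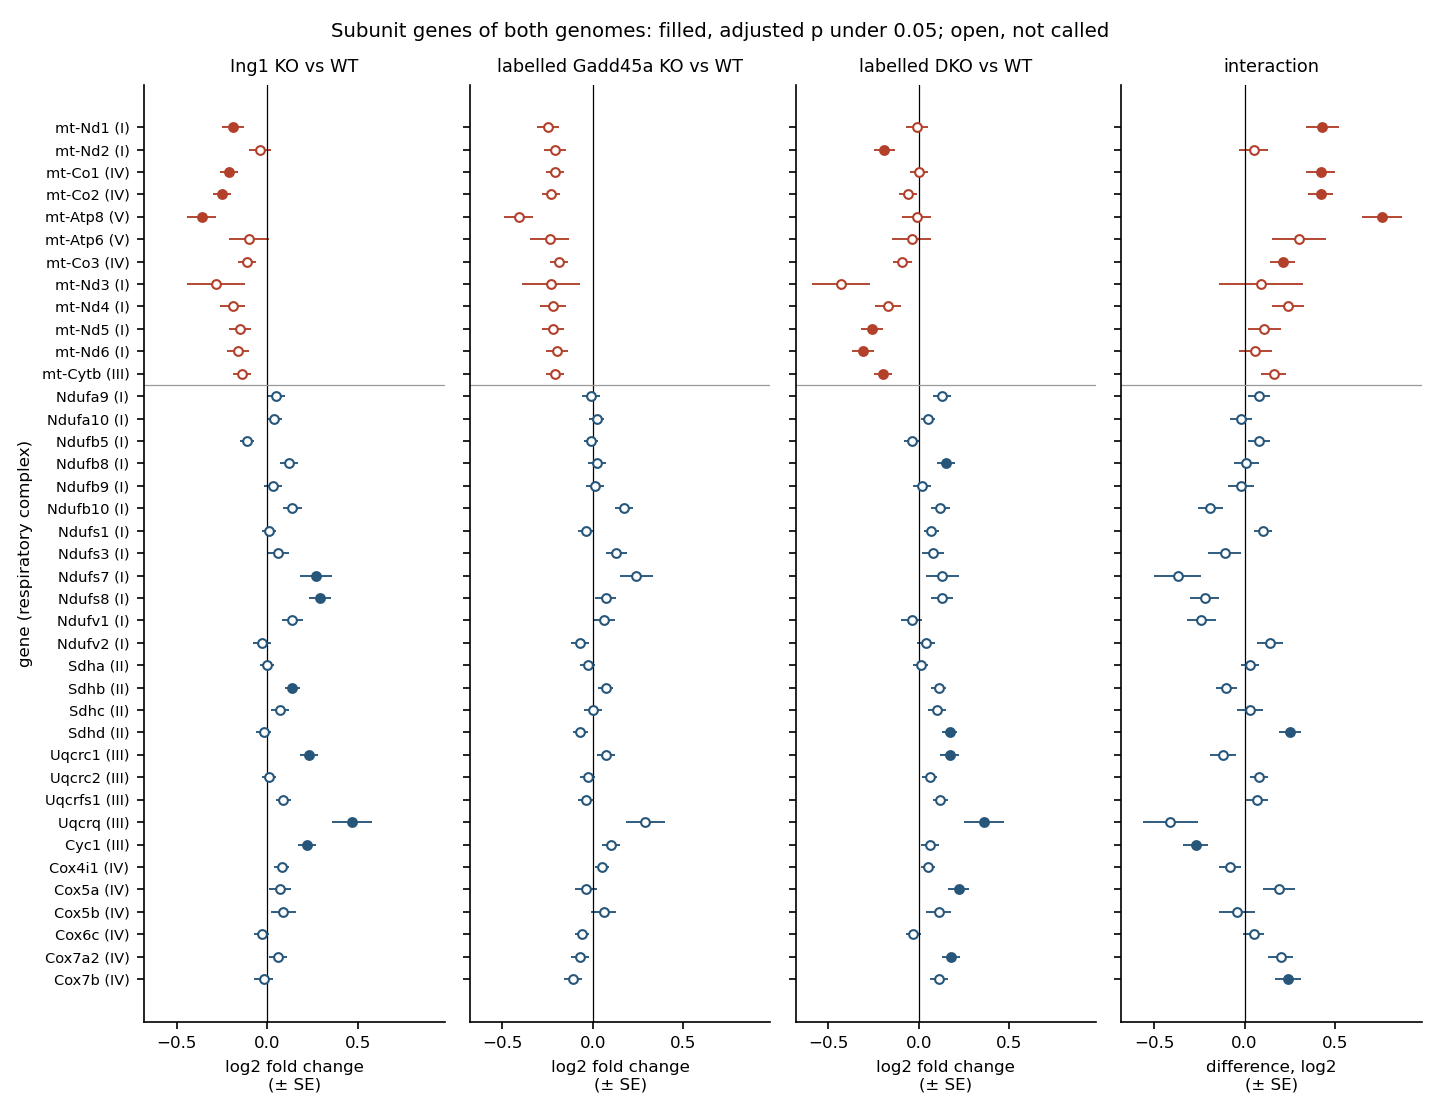
Log2 fold changes against the WT of the 39 tested members with their SE (first 3 panels), and the interaction of both labels on the log2 scale (last panel). Red marks mitochondrial and blue nuclear members, with the complex in brackets. Filled points passed an edgeR adjusted p under 0.05: 4 mitochondrial members below 0 and 6 nuclear ones above 0 in Ing1 KO, none in the labelled Gadd45a knockout, and 4 below and 6 above 0 in the labelled DKO.

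The libraries labelled DKO were compared with the WT to ask about the joint loss. Of 12 mitochondrial members 4 fell, where 10.3% of all tested genes fell, and these were mt-Nd2, mt-Nd5, mt-Nd6 and mt-Cytb. None of them was among the 4 called in Ing1 KO, but mt-Nd5, mt-Nd6 and mt-Cytb had log2 fold changes of -0.15, -0.16 and -0.14 there. Between the libraries labelled DKO and Ing1 KO, the main edgeR fit called none of mt-Nd2, mt-Nd5, mt-Nd6 and mt-Cytb. DESeq2 called mt-Nd2 lower in that comparison (adjusted p = 0.0294). So did edgeR with RLE factors, upper-quartile factors or no filter (adjusted p of 0.0474, 0.0302 and 0.0284). With no filter edgeR also called mt-Nd6 lower (adjusted p = 0.0456). Against the WT, the median log2 fold change was -0.13, with a range from -0.43 to 0.00, beside 0.01 over all tested genes. All 12 estimates were at or below 0, beside 48.3% of all tested genes, and in 7 of the 12 the libraries lay wholly below the WT, against 18.5% of all.

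The lowest adjusted p belonged to mt-Nd6, a complex I subunit and the one member that is encoded on the opposite strand, at 351, 328 and 362 CPM in WT libraries, 322, 287 and 323 CPM in Ing1 KO libraries, 314, 292 and 300 CPM with the Gadd45a knockout label and 295, 289 and 259 CPM with the DKO label. The libraries labelled DKO lay wholly below the WT, by -0.31 ± 0.06 (log2, edgeR adjusted p = 0.00303). The library kit does not mark strand, so RNA of either strand in the stretch of mt-Nd6 cannot be told apart. Next was mt-Nd5, a proton-pumping subunit of complex I whose gene end overlaps that of mt-Nd6 by 14 bases on the other strand, at 1130, 1080 and 1190 CPM in WT libraries, 1000, 980 and 1070 CPM in Ing1 KO libraries, 1010, 960 and 939 CPM with the Gadd45a knockout label and 986, 984 and 865 CPM with the DKO label. It was lower without overlap, by -0.26 ± 0.06 (log2, edgeR adjusted p = 0.00635).

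The level of mt-Cytb was 1420, 1340 and 1420 CPM in WT libraries, 1250, 1210 and 1330 CPM in Ing1 KO libraries, 1280, 1170 and 1160 CPM with the Gadd45a knockout label and 1200, 1190 and 1260 CPM with the DKO label. It fell by 0.20 on the log2 scale (SE 0.05, edgeR adjusted p = 0.0134), and the libraries labelled DKO lay wholly below the WT. The change of mt-Nd2, a proton-pumping complex I subunit, was -0.19 ± 0.06 (edgeR adjusted p = 0.0277), and its call ended without WT replicate 1, WT replicate 3 or DKO replicate 3 (adjusted p of 0.0877, 0.0908 and 0.0915). The calls of mt-Nd6, mt-Nd5 and mt-Cytb held under every alternative tried.

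The 4 members that fell in Ing1 KO were close to the WT here, with log2 fold changes of -0.01 for mt-Nd1, 0.00 for mt-Co1, -0.06 for mt-Co2 and -0.01 for mt-Atp8 (SE 0.06, 0.05, 0.05 and 0.08). The libraries of mt-Nd1, mt-Co1 and mt-Atp8 overlapped those of the WT, while those of mt-Co2 lay just below. The largest fold change, -0.43 for mt-Nd3, a small complex I subunit, was not called (edgeR adjusted p = 0.0862): it stood at 135, 171 and 98.9 CPM in the libraries labelled DKO and at 169, 172 and 203 CPM in the WT, so the groups overlapped. DESeq2 called 6 mitochondrial members, all lower, where it called 1614 of 24670 genes lower. The 16 macrophage markers were all called higher in these libraries, with a median log2 fold change of 2.55, and their part in the result was not tested.

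Of the 27 nuclear members, 6 rose in the libraries labelled DKO and none fell, where 15.6% of all tested genes rose. The median was 0.11, with a range from -0.04 to 0.36, and 24 of 27 were above 0, beside 51.7% of all tested genes. In 14 the libraries lay wholly above the WT, against 22.8% of all tested genes. The mitochondrial median stood 0.24 below the nuclear one. Uqcrq and Uqcrc1 were called here as in Ing1 KO, at 0.36 ± 0.11 and 0.17 ± 0.05 (log2, edgeR adjusted p of 0.0285 and 0.0179).

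The other 4 were not called in Ing1 KO, and of these only Sdhd was called in the direct comparison of the libraries labelled DKO with Ing1 KO by edgeR. Sdhd (ENSMUSG00000000171), a membrane anchor of complex II, stood at 81.7, 88.8 and 83.0 CPM in WT libraries, 84.3, 82.0 and 84.6 CPM in Ing1 KO libraries, 78.5, 80.6 and 82.4 CPM with the Gadd45a knockout label and 97.8, 92.5 and 94.4 CPM with the DKO label. Every library labelled DKO was above all 9 others, and the change against the WT was 0.17 ± 0.04 (log2, edgeR adjusted p = 0.0101). Cox5a, a complex IV subunit facing the matrix, rose by 0.22 ± 0.06 (edgeR adjusted p = 0.021), from 31.6 ± 0.956 to 36.8 ± 3.18 CPM. Cox7a2, a small complex IV subunit, rose by 0.18 ± 0.05 (edgeR adjusted p = 0.015), from 51.4 ± 1.90 to 58.3 ± 1.31 CPM, and the accessory complex I subunit Ndufb8 by 0.15 ± 0.05 (edgeR adjusted p = 0.0432), from 32.4 ± 0.886 to 36.0 ± 2.26 CPM (SD, n = 3 each).

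None of these 6 nuclear calls held under every alternative, and with upper-quartile scaling 1 nuclear member was called, while the count was 2 without WT replicate 3, DKO replicate 1 or DKO replicate 2 and 3 without WT replicate 2. Uqcrq lost its call without WT replicate 2 or 3 or DKO replicate 2 or 3 (adjusted p of 0.104, 0.088, 0.115 and 0.0603), and Uqcrc1 without WT replicate 3 or DKO replicate 1 or 3 (0.0639, 0.0687 and 0.0722). Sdhd lost it without DKO replicate 1 (0.0554), and Cox5a without WT replicate 2 or 3 or DKO replicate 2 or 3 (0.0736, 0.0541, 0.0717 and 0.107). Cox7a2 lost it without WT replicate 2 or DKO replicate 1 or 2 (0.0649, 0.0629 and 0.0574), and Ndufb8 without any WT replicate or without DKO replicate 1 or 2 (0.12, 0.0544, 0.0907, 0.0962 and 0.209), by DESeq2 (0.0819), with RLE factors (0.0571), with no filter (0.0982) and with only these groups in the fit (0.116). With no filter Uqcrq also lost its call (0.0783), and Uqcrq was the 1 nuclear member called with upper-quartile factors. The direction was upward in each of these alternatives.

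The libraries labelled DKO were also set against each single knockout. Against Ing1 KO, 4 of 12 mitochondrial members were higher and none lower, where 14.9% of all tested genes were higher, and they were the 4 that fell in Ing1 KO. Their log2 differences were 0.18 ± 0.06 for mt-Nd1, 0.20 ± 0.05 for mt-Co1, 0.20 ± 0.05 for mt-Co2 and 0.35 ± 0.08 for mt-Atp8 (edgeR adjusted p of 0.0439, 0.015, 0.0112 and 0.00583). The same 3 Ing1 KO libraries enter both comparisons, so the match of these 4 members is not independent. Without Ing1 KO replicate 2 only mt-Atp8 of these kept its call, with adjusted p of 0.173 for mt-Nd1, 0.0773 for mt-Co1 and 0.0563 for mt-Co2. That of mt-Co1 also ended without DKO replicate 3 (0.0508) and with only these groups in the fit (0.063), and that of mt-Nd1 without Ing1 KO replicate 1 or DKO replicate 1 or 2 (0.0575, 0.118 and 0.184), with RLE factors (0.0582), upper-quartile scaling (0.0702), no filter (0.054), the replicate block (0.0665) or only these groups in the fit (0.129).

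Of the nuclear members, Sdhd was higher by 0.18 ± 0.04 (log2, edgeR adjusted p = 0.00699), and Cyc1 was lower by -0.16 ± 0.05 (edgeR adjusted p = 0.0219). Ndufv1, the flavin subunit through which electrons enter complex I, was lower by -0.18 ± 0.06 (edgeR adjusted p = 0.0384), and was chosen after its values were seen. That makes 1 higher and 2 lower of 27, where 14.9% of all tested genes were higher and 9.88% lower. The call of Cyc1 ended without Ing1 KO replicate 2 or DKO replicate 2 or 3 (adjusted p of 0.113, 0.076 and 0.0729), and that of Ndufv1 without Ing1 KO replicate 2 or 3 or DKO replicate 2 or 3 (0.112, 0.086, 0.0812 and 0.142).

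Against the libraries labelled Gadd45a knockout, the same 4 mitochondrial members were higher in those labelled DKO, where 15.8% of all tested genes were higher. The libraries labelled DKO are those compared with Ing1 KO above, so this match is not independent either. The differences were 0.24 ± 0.06 for mt-Nd1, 0.21 ± 0.05 for mt-Co1, 0.17 ± 0.05 for mt-Co2 and 0.40 ± 0.08 for mt-Atp8 (log2, edgeR adjusted p of 0.0118, 0.0119, 0.0201 and 0.0024). Without Gadd45a knockout replicate 2 or 3, mt-Co1 (0.0536 and 0.0515) and mt-Co2 (0.0569 and 0.0898) lost their calls, mt-Co2 also without DKO replicate 2 or 3 (0.0591 and 0.051) and with upper-quartile factors (0.0581), and mt-Nd1 without DKO replicate 2 (0.0576). Of 27 nuclear members 7 were higher and none lower, where 10.6% of all tested genes were lower, and 3 of the 7 belong to complex IV: Cox5a, Cox7a2 and Cox7b, at 0.26 ± 0.06, 0.25 ± 0.05 and 0.22 ± 0.05 (edgeR adjusted p of 0.00965, 0.00266 and 0.00745). Sdhd was higher by 0.24 ± 0.04 (edgeR adjusted p = 0.00136), and its call held under every alternative, as did those of Cox7a2, Cox7b and mt-Atp8, while that of Cox5a ended without DKO replicate 3 (0.0512). The remaining 3, chosen after their values were seen, were Uqcrfs1 at 0.16, Ndufa9 at 0.13 and Ndufs1 at 0.11 (adjusted p of 0.0153, 0.0431 and 0.0455), of which Ndufa9 and Ndufs1 lost their calls without any 1 of the 6 libraries (0.0526 to 0.238 and 0.095 to 0.17), with RLE factors (0.0507 and 0.0604), upper-quartile factors (0.155 and 0.187), no filter (0.141 and 0.196) or the replicate block (0.0614 and 0.0509) and by DESeq2 (0.0585 and 0.0601), and Uqcrfs1 without Gadd45a knockout replicate 1 or DKO replicate 1 (0.0799 and 0.0745) and with upper-quartile factors (0.0532).

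The macrophage markers were higher in the libraries labelled DKO against each single knockout too, 16 of 16 in each case, and their part in these differences was not tested.

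The interaction asks whether the change in the libraries labelled DKO differs from the sum of both single changes on the log2 scale. A value above 0 means that the libraries labelled DKO stood above that sum. Of 12 mitochondrial members, 5 had a positive interaction and none a negative one, where 10.4% of all tested genes had a positive and 7.4% a negative one. All 12 estimates were above 0, as were 51.3% over all tested genes, with medians of 0.23 and 0.01, and they were above 0 under every scaling tried. The WT libraries enter the interaction with a positive sign, so a high WT raises it while lowering every comparison with the WT. The shared sign of the 12 is therefore not independent of those comparisons. Without the WT, 7 of the 12 were above 0 in the libraries labelled DKO against Ing1 KO (median 0.02). Against the labelled Gadd45a knockout, 9 of the 12 were above 0 (median 0.08). The called interactions were 0.76 ± 0.11 for mt-Atp8, 0.43 ± 0.09 for mt-Nd1, 0.42 ± 0.08 for mt-Co1, 0.42 ± 0.07 for mt-Co2 and 0.21 ± 0.07 for mt-Co3 (log2, edgeR adjusted p of 0.00167, 0.00706, 0.00497, 0.00306 and 0.0417).

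For the first 4 of these, each single knockout stood below the WT and the libraries labelled DKO stood near it. In mt-Co1 the log2 values were -0.21 in both single knockouts, and 0.00 in the libraries labelled DKO, and in mt-Atp8 they were -0.36, -0.41 and -0.01. The interactions of mt-Atp8, mt-Nd1, mt-Co1 and mt-Co2 held under every alternative tried, leaving out any library included. That of mt-Co3 ended with RLE or upper-quartile scaling or with no filter (adjusted p of 0.0521, 0.0651 and 0.0931) and without any 1 of 9 libraries, with the highest adjusted p, 0.117, without Gadd45a knockout replicate 2. The rest ranged from 0.05 for mt-Nd2 to 0.30 for mt-Atp6 and were not called.

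Of 27 nuclear members, 2 had a positive interaction and 1 a negative one, beside the 10.4% and 7.4% of all tested genes. Sdhd was at 0.25 ± 0.06 and Cox7b at 0.24 ± 0.07, and Cyc1 at -0.27 ± 0.07 (log2, edgeR adjusted p of 0.0139, 0.0401 and 0.018). Cox7b stood at 64.8, 65.6 and 67.6 CPM in WT libraries, 63.9, 66.3 and 64.9 CPM in Ing1 KO libraries, 55.7, 61.9 and 65.8 CPM with the Gadd45a knockout label and 70.2, 70.7 and 72.9 CPM with the DKO label. The libraries labelled DKO lay wholly above the other 9, with the labelled Gadd45a knockout lowest in mean. The calls of Sdhd and Cyc1 held under every alternative, while that of Cox7b ended without any 1 of 10 of the 12 libraries (adjusted p of 0.0577 to 0.0845), the exceptions being WT replicate 1 and Gadd45a knockout replicate 3. The call of Cox7b also ended with RLE or upper-quartile factors or with no filter (edgeR adjusted p of 0.0504, 0.0601 and 0.0758).

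Because the mitochondrial members did not move as a block in the libraries labelled DKO, ratios among their reads were computed. The pairs were chosen after the values were seen and are given with no test. There were 3.09, 3.01 and 3.63 reads of mt-Co1 per read of mt-Nd5 in the libraries labelled DKO and 2.51 to 2.81 in the other 9. For mt-Co2 per mt-Cytb the values were 0.812, 0.837 and 0.785 against 0.661 to 0.753. For mt-Atp8 per mt-Nd6, neither of which shares windows with another annotated gene, they were 0.277, 0.307 and 0.379 against 0.217 to 0.269.

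In these 3 ratios the libraries labelled DKO stood above all others, and replicate 3 stood furthest out in 2 of them. The ratio of mt-Co1 to mt-Nd1, both near the WT, overlapped between the groups, at 2.89 to 3.64 in the libraries labelled DKO and 3.08 to 3.35 in the other 9. In the order of the genome, the members from mt-Co1 through mt-Co3 had log2 fold changes against the WT of -0.09 to 0.00 in the libraries labelled DKO. Those from mt-Nd3 through mt-Cytb had -0.43 to -0.17. Of the pair ahead of both runs, mt-Nd1 was at -0.01 and mt-Nd2 at -0.19. This split was also chosen after the values were seen. In the labelled Gadd45a knockout, by contrast, 11 of the 12 lay between -0.25 and -0.19.

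**Figure D4:**
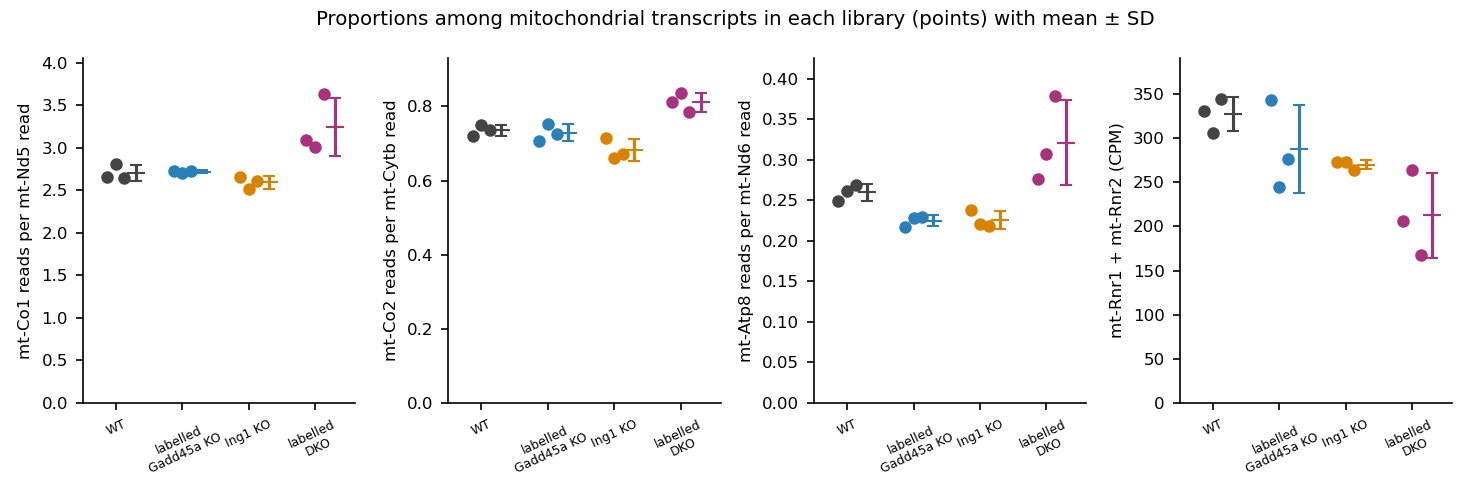
Reads of mt-Co1 per read of mt-Nd5, of mt-Co2 per mt-Cytb and of mt-Atp8 per mt-Nd6 in each library, and the summed CPM of both mitochondrial rRNAs. Points are libraries, and bars beside them are the mean and SD of each group. The libraries labelled DKO stand above the other 9 in the 3 ratios and have the lowest mean rRNA sum.

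Other RNAs of the mitochondrial genome were lower in the libraries labelled DKO as well. The rRNAs mt-Rnr1 and mt-Rnr2, which form the core of the mitochondrial ribosome, fell by 0.56 and 0.66 on the log2 scale (SE 0.17 and 0.15, edgeR adjusted p of 0.0375 and 0.0106). Their summed level was 331, 306 and 344 CPM in the WT and 206, 264 and 168 CPM in the libraries labelled DKO, with no overlap. It was 264 to 273 CPM in Ing1 KO and 245 to 343 CPM in the labelled Gadd45a knockout, where neither was called by edgeR or DESeq2 and neither had an unadjusted p under 0.05. Of 22 tRNA genes 12 were tested, and 4 fell in the libraries labelled DKO, where 10.3% of all tested genes fell: mt-Tc by 1.08, mt-Ty by 1.06, mt-Tn by 0.98 and mt-Tp by 0.32 on the log2 scale (edgeR adjusted p of 0.00173, 0.0125, 0.00468 and 0.0404). All 4 have 66 to 71 bases and lie on the strand of mt-Nd6, and the kit does not mark strand, so RNA of either strand cannot be told apart. The 22 tRNAs summed to only 35.8 ± 3.91 CPM in the WT and 28.2, 30.2 and 19.5 CPM in the libraries labelled DKO. In Ing1 KO edgeR called 1 tRNA, mt-Ty, lower by 0.82 (adjusted p = 0.0386), and DESeq2 called 2 lower. These libraries were made from polyadenylated RNA, which captures rRNA and tRNA poorly.

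Further nuclear genes of the pathway were counted beside the 12.1% of all tested genes that rose in Ing1 KO and the 15.6% that rose in the libraries labelled DKO. Of 35 other subunits of complexes I to IV and cytochrome c, 9 rose in Ing1 KO and 5 in the libraries labelled DKO, and none fell in either, with medians of 0.09 and 0.03. Examples are Uqcr11, a small complex III subunit, at 0.35 ± 0.06 and 0.26 ± 0.06 (edgeR adjusted p of 0.00157 and 0.00662), and Ndufv3, an accessory complex I subunit, at 0.34 ± 0.05 in the libraries labelled DKO (adjusted p = 0.000773). Of 16 nuclear genes of the ATP synthase, a complex with no nuclear member in the list of 27, 2 rose in Ing1 KO and 1 in the libraries labelled DKO. Atp5b, its catalytic beta subunit, rose in both, by 0.23 ± 0.04 and 0.15 ± 0.04 (adjusted p of 0.00244 and 0.0211). Isoforms typical of muscle, lung and testis were scarce: 5 of 7 were tested, and none was called against the WT by edgeR, while DESeq2 called 1 lower in Ing1 KO and 1 had an unadjusted p under 0.05 in each of the 3 comparisons. In the labelled Gadd45a knockout 8.82% of all tested genes had such a p.

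Among the genes that build and serve the complexes the counts are read beside all tested genes, of which 12.1% rose and 11.4% fell in Ing1 KO, and 15.6% rose and 10.3% fell in the libraries labelled DKO. Of 41 tested assembly factors, 4 rose and 2 fell in Ing1 KO, and 2 rose and none fell in the libraries labelled DKO. Tmem70, an assembly factor of the ATP synthase, rose in both, by 0.26 ± 0.07 and 0.33 ± 0.07 (log2, edgeR adjusted p of 0.0229 and 0.00543). Of 25 genes of mitochondrial transcription and RNA processing, 3 rose and 1 fell in Ing1 KO and 1 rose in the libraries labelled DKO. Polrmt, the mitochondrial RNA polymerase, rose by 0.33 ± 0.09 in Ing1 KO (adjusted p = 0.0161), where the mitochondrial transcripts themselves stood lower. Mtpap, the 1 that fell there, was at -0.22 ± 0.06 (edgeR adjusted p = 0.0253) and was chosen after its values were seen. Of the 25 genes, 13 were above 0 and 12 below in Ing1 KO. Pnpt1, a mitochondrial exoribonuclease, rose by 0.23 ± 0.05 in the libraries labelled DKO (adjusted p = 0.00626).

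Of 11 genes that copy and maintain mitochondrial DNA, 1 rose and 1 fell in Ing1 KO, and 1 rose in the libraries labelled DKO. Of 76 tested mitochondrial ribosome proteins, 12 rose and 1 fell in Ing1 KO and 5 rose in the libraries labelled DKO. The shares of all tested genes that rose were 12.1% and 15.6%. No gene of these lists was called in the labelled Gadd45a knockout by edgeR or DESeq2, and at an unadjusted p under 0.05 there were 3 of 35 other subunits, 0 of 16 of the ATP synthase, 3 of 41 assembly factors, 2 of 25 transcription genes, 1 of 11 maintenance genes and 7 of 76 ribosome proteins. The share of all tested genes at that threshold was 8.82%.

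Among 10 regulators of mitochondrial biogenesis, 3 rose in Ing1 KO, and 2 rose and 1 fell in the libraries labelled DKO. Of all tested genes 12.1% rose in Ing1 KO, and 15.6% rose and 10.3% fell in the libraries labelled DKO. Esrra, a nuclear receptor that drives respiratory genes, rose by 0.39 ± 0.08 in Ing1 KO and 0.34 ± 0.08 in the libraries labelled DKO (log2, edgeR adjusted p of 0.00343 and 0.00664). Myc rose by 0.49 ± 0.10 in Ing1 KO (adjusted p = 0.00373). In the libraries labelled DKO the related coactivators moved apart at low levels: Ppargc1b rose from 0.812 ± 0.0544 to 1.66 ± 0.192 CPM (adjusted p = 0.00222), and Ppargc1a fell from 0.475 ± 0.141 to 0.164 ± 0.0699 CPM (adjusted p = 0.0332), with 3 to 23 counts per library. In the labelled Gadd45a knockout none of the 10 was called by edgeR or DESeq2, and 2 had an unadjusted p under 0.05, against 8.82% of all tested genes.

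Of the 27 nuclear members, 12 were called in no comparison and not in the interaction: Ndufa10, Ndufb5, Ndufb9, Ndufb10, Ndufs3 and Ndufv2 of complex I, Sdha and Sdhc of complex II, Uqcrc2 of complex III, and Cox4i1, Cox5b and Cox6c of complex IV. That does not show that they did not change. Sdha, the flavin subunit of complex II, had the narrowest spread, at 185 to 201 CPM over the 12 libraries. In GENCODE M21, exons of Ndufa9, Ndufb5, Ndufs1, Ndufs3, Uqcrc2, Cox4i1, Cox5a and Cox6c overlap a gene on the opposite strand, and the library kit does not mark strand, so reads in those stretches cannot be told apart. Among the mitochondrial members, mt-Nd3, mt-Nd4 and mt-Atp6 were called in no comparison and not in the interaction.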

How the data were processed

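The measured values are counts of polyadenylated RNA reads per gene in 12 libraries, 3 for each of 4 genotypes. The authors deposited 1 table of raw read counts per library, with 37991 Ensembl gene identifiers and 5 summary lines, per the file contents, and per the submitters' processing notes TopHat2 2.0.9, Bowtie2 2.1.0, HTSeq 0.5.4 and DESeq were used with mm9 (NCBIM37). Per the labels' protocols, libraries came from 280 ng RNA with the TruSeq RNA v2 kit and 12 PCR cycles and were pooled and read for 51 cycles in 7 lanes, so no sequencing run separates the groups, while culture or extraction batches are not given in the sources used here. Each library held 31493168 to 42852059 gene counts. Another 23.89% to 24.91% of counted reads were assigned to no gene, of which reads without a unique position were 17.9% to 19.12%. These lines stayed out of library sizes and tests. Of the identifiers, 32919 had a symbol in the gene name table.

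Counts were filtered with edgeR's filterByExpr (15098 genes kept), scaled by TMM and fitted over all 12 libraries with edgeR 4.0.16 in R 4.3.3 by the quasi-likelihood test, with 8 residual degrees of freedom and Benjamini-Hochberg adjustment over all tested genes. The biological coefficient of variation was 8.2%. A gene was called at an adjusted p under 0.05. The code was tested on simulated data. Alternatives were RLE and upper-quartile factors, library sizes without mitochondrial genes, DESeq2 1.42.0, no filter, a replicate block, only the groups compared and each library left out in turn. Same-numbered WT and labelled Gadd45a knockout libraries deviated together from their group means, with correlations of 0.105 to 0.336 against -0.24 to 0.132 for other-numbered libraries, so replicate numbers were taken to pair these groups, and a fit of those 6 libraries with the block was added after the data were seen.

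The members and all gene lists were chosen with earlier results of these data known. All mitochondrial members were to be named, up to 10 called nuclear members by smallest adjusted p, and up to 3 called genes of each further list.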

Additional observations from a re-analysis of the deposited data

Results flagged for a closer look

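In 8 of the 39 tested members the effect of the labelled Ing1 loss differed between libraries with and without the Gadd45a label, by edgeR's test of the interaction. The difference on the log2 scale was 0.76 for mt-Atp8, 0.43 for mt-Nd1, 0.42 for mt-Co1, 0.42 for mt-Co2 and 0.21 for mt-Co3. In the first 4, Ing1 KO lay below the WT, while the libraries labelled DKO lay above those labelled Gadd45a knockout. Among nuclear members the difference was 0.25 for Sdhd, 0.24 for Cox7b and -0.27 for Cyc1. The WT libraries enter the interaction too, so it is not independent of the comparisons with the WT. Gadd45a itself was higher in the libraries labelled as lacking it, and the 16 macrophage markers were higher in those labelled DKO than in every other group. The part of either in these differences was not tested.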

How the results depend on the processing

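No called member changed direction in any alternative run. Of 46 calls of a member in a comparison, 21 were kept in every alternative and 25 were lost in at least 1, while 37 of 188 uncalled pairs gained a call in some alternative. With upper-quartile scaling, 8 mitochondrial members were called in Ing1 KO, and 1 nuclear member in the libraries labelled DKO against the WT (nuclear median 0.07). Against the labelled Gadd45a knockout it was 4 nuclear members (medians 0.04 mitochondrial and 0.02 nuclear), and in the interaction 5 nuclear members. DESeq2 called 23 genes and 6 mitochondrial members in the labelled Gadd45a knockout, and 6 nuclear members in the interaction. With no filter the nuclear median was 0.04 for the labelled DKO against the labelled Gadd45a knockout and -0.02 for the interaction. With only the groups compared in the fit, 0 genes were called in the labelled Gadd45a knockout, and 2 mitochondrial members in the labelled DKO against Ing1 KO.

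Leaving out 1 library, Ing1 KO against the WT gave 1858 to 3548 genes (1858 without Ing1 KO replicate 2, 2113 without WT replicate 2), 2 to 6 mitochondrial and 4 to 7 nuclear calls, medians of -0.20 to -0.13 and 0.04 to 0.09, and a difference of medians of -0.28 to -0.18. The labelled Gadd45a knockout gave 1 to 13 genes (13 without WT replicate 1), 0 member calls, medians of -0.26 to -0.19 and -0.01 to 0.03, and a difference of -0.28 to -0.18. The labelled DKO against the WT gave 2754 to 3536 genes, 3 to 5 and 2 to 5 calls, medians of -0.16 to -0.09 and 0.08 to 0.11, and a difference of -0.25 to -0.17. Against Ing1 KO these were 2249 to 3676 genes (2249 without Ing1 KO replicate 2), 1 to 4 and 1 to 4 calls (1 nuclear call without DKO replicate 2 or 3), medians of -0.01 to 0.04 and 0.00 to 0.03, and -0.03 to 0.03. Against the labelled Gadd45a knockout they were 2679 to 3404 genes, 2 to 4 and 4 to 6 calls (4 nuclear calls without Gadd45a knockout replicate 1), medians of 0.05 to 0.09 and 0.05 to 0.08, and -0.01 to 0.03. The interaction gave 1300 to 3285 genes (1300, 1599, 1386 and 1607 without WT replicate 2, WT replicate 3, Ing1 KO replicate 2 and DKO replicate 2), 4 to 5 and 2 to 7 calls (7 without WT replicate 1), medians of 0.19 to 0.26 and -0.01 to 0.03, and 0.17 to 0.25.

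With the replicate block over all 12 libraries, 3434 genes, 3 mitochondrial and 6 nuclear members were called in Ing1 KO (mt-Nd1 lost its call), and 3824, 4 and 6 in the labelled DKO against the WT. In the paired fit of the 6 WT and labelled Gadd45a knockout libraries the block gave 13 genes and 1 mitochondrial member. Same-numbered libraries of the other pairs of groups correlated at -0.177 to 0.206 and were not taken as pairs. For Ing1 KO and the labelled DKO these correlations were small but all above 0. They were 0.018 to 0.076, against -0.071 to 0.038 for other-numbered libraries.

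Members with windows shared with other genes are limited by multiple mapping, and changes of this size rest on 3 libraries a group.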

Other observations

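Markers of other cell types that MEF cultures could hold were also counted. Of all tested genes 12.1% rose and 11.4% fell in Ing1 KO. Of 8 fibroblast markers, 3 rose and 2 fell in Ing1 KO, among them Fn1, fibronectin, at 0.45 ± 0.08, the intermediate filament gene Vim at 0.36 ± 0.06 and Pdgfra, a growth factor receptor, at -0.80 ± 0.14 (log2, edgeR adjusted p of 0.00142, 0.00161 and 0.00315). In the libraries labelled DKO, where 10.3% of all tested genes fell, 1 fell against the WT, Pdgfrb, at -0.28 ± 0.06 (adjusted p = 0.0048). Muscle and brown fat, tissues rich in mitochondria, were represented by few reads: 7 muscle markers summed to 24.3 to 74.5 CPM and 4 brown fat markers to 5.65 to 9.97 CPM over the 12 libraries. Of 3 tested muscle markers, Myh3, an embryonic myosin, fell by 3.20 in Ing1 KO and by 3.45 in the libraries labelled DKO on the log2 scale (adjusted p of 0.003 and 0.00227). In Ing1 KO, Des was at 0.77 and Tnnt3 at -0.13, neither called, and under the DKO label 1 of the 3 was above 0, at 0.51. The muscle sum did not fall with Myh3: it was 36.1 ± 3.62 CPM in the WT, 59.7 ± 20.0 CPM in Ing1 KO and 49.8 ± 17.4 CPM under the DKO label (SD, n = 3 each). Of 2 tested brown fat markers, Dio2, which activates thyroid hormone, rose by 1.72 ± 0.26 in Ing1 KO (adjusted p = 0.000692). No marker of these lists was called by edgeR or DESeq2 in the labelled Gadd45a knockout, where 1 fibroblast marker and none of the others had an unadjusted p under 0.05, against 8.82% of all tested genes.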
